A study of Mus musculus with 7 samples.

Results

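The nucleoside diphosphate kinase genes Nme1 to Nme7 were followed in ribosome-bound RNA of cholinergic cells of the mouse ventral striatum. Members were chosen by gene symbol, and the family was picked because Nme7 had been seen to be nearly lost in the KO libraries of these same data. Of the 7 symbols, 6 had a row among the 22016 rows of the expression table, and all 6 reached the mean of 1 FPKM (fragments per length of the gene and per size of the library) needed to enter the fit of 10089 rows. Nme2 was not analysed here. Because the KO against WT contrast chose the family, its values for the members are given as a description, without a test.

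RNA was obtained by translating ribosome affinity purification (TRAP), which pulls down tagged ribosomes with the RNA on them, from mice whose tag is driven by Chat, the gene of the acetylcholine-synthesizing enzyme. All mice, on a C57/Bl6N background and aged 8 to 12 weeks, carried the ChAT TRAP transgene and the p11 fl/fl alleles, that is, floxed S100a10. The 4 KO libraries (KO1 to KO4) came from mice that also carried ChAT Cre, and the 3 WT libraries (WT1 to WT3) from littermates without Cre. Each library pooled 6 ventral striata of 3 mice, males and females were used, and no treatment was given. Values by library are always listed in the order of these names. Cre was present in KO mice alone, so an effect of Cre itself and that of the deletion cannot be told apart, nor can a change of RNA per cell and a change in the number of tagged cells.

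Nucleoside diphosphate kinases move the terminal phosphate of ATP onto other nucleoside diphosphates and so keep up the supply of GTP, CTP and UTP. The phosphate passes through a histidine of the enzyme. Nme1 and Nme2 encode the abundant cytosolic subunits, Nme3 and Nme4 encode enzymes found at or in mitochondria, and Nme6 is a more distant mitochondrial member. Nme5 and Nme7 are known for motile cilia in mouse, and human NME7, with a pair of kinase domains, is also a component of the gamma-tubulin ring complex, from which microtubules grow.

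The codons around the active-site histidine were compared, and among the members searched only Nme7 had more than 1 match. In the longest complete coding sequences of Nme1, Nme3, Nme4, Nme6 and Nme7 in the GENCODE M21 transcripts (GRCm38, the mm10 assembly), codons for asparagine, 2 residues of any kind, histidine, 2 residues of any kind and aspartate were searched. Nme2 and Nme5 were not searched. Nme1, Nme3, Nme4 and Nme6 had 1 match each and Nme7 had 2 matches, with the histidine at codons 225 and 374 of its 395. The 30 bases from the asparagine codon onward are given with the histidine codon in capitals.
Nme1: aacatcattCATggcagcgattctgtaaag
Nme3: aatgtaattCATggcagcgactcggtggaa
Nme4: aacgtcatcCATgctagcgattctgtggat
Nme6: aatactaccCATggctcagactccgtggtt
Nme7 first site: aatgcagctCACggccctgatacttttgca
Nme7 second site: aatgctgttCATtgcacggatctgccggag
Nme3 and Nme4 shared 22 and 23 of the 30 bases with Nme1, Nme6 shared 16, and the sites of Nme7 shared 14 and 15. The coding sequence of Nme7 has 1185 bases, against 456 in Nme1, 507 in Nme3, 609 in Nme4 and 567 in Nme6.

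The libraries carried cholinergic RNA throughout, with 894.2 to 1305.5 FPKM summed over 6 cholinergic markers. Chat had levels of 208.3, 306.4 and 228.2 FPKM without Cre and 128.0, 228.7, 213.5 and 250.1 FPKM with Cre. The targeted gene S100a10 reached 329.5, 332.7 and 387.5 FPKM in the WT series of libraries, against 127.1, 138.8, 189.8 and 89.2 FPKM in the KO series, so that every KO library lay below every WT library. KO1 stood apart by markers of other cells, with 222.6 FPKM summed over 4 medium spiny neuron markers against 54.8 to 92.4 in the other libraries. Its sum over 4 markers of other interneurons was 90.2 FPKM, against 9.2 to 29.6 in the other libraries. This sum was mostly Sst at 51.0 and Npy at 34.3 FPKM, while Nos1, at 0.4 FPKM, was lowest in KO1. The values of 92.4 and 29.6 FPKM were those of KO4, where Sst was at 23.7 FPKM. RNA of Y-linked genes was listed at 0 in WT2, WT3 and KO2 and above 0 in the other libraries. The numbers that the file header gives the libraries were 83, 105 and 113 for WT but 210, 214, 218 and 222 for KO, so whatever these numbers stand for and the genotype cannot be told apart.

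Nme7 (chromosome 1, 164304121 to 164437725, plus strand) was the member that separated the groups. Its level was 117.2 FPKM in WT1, 96.0 in WT2 and 89.3 in WT3. With Cre it was 4.2 FPKM in KO1, 1.5 in KO2, 3.7 in KO3 and 1.9 in KO4. The highest KO library thus lay far below the lowest WT library, while a low signal persisted in each KO library. The means were 101 ± 14.6 FPKM in WT (SD, n = 3) and 2.83 ± 1.33 FPKM in KO (SD, n = 4), so the KO mean was 2.8% of the WT mean, or 35.7-fold lower. On the log2(FPKM + 1) scale, which understates changes of low values, the difference was -4.79 (SE 0.25, 95% interval -5.33 to -4.25), the lowest of the 10089 rows in the fit. Of all these rows, 2 lay at -3 or below.

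By its listed FPKM, Nme7 ranked high in WT and low in KO. Among all 22016 rows it ranked between 659 and 823 in the WT libraries and between 7239 and 9268 in the KO libraries. Among libraries with Y-linked RNA the values were 117.2 FPKM in WT1 against 4.2, 3.7 and 1.9 FPKM in KO1, KO3 and KO4. Among those without it they were 96.0 and 89.3 FPKM in WT2 and WT3 against 1.5 FPKM in KO2. Every WT value lay above every KO value, so any such split must separate the groups. Each part also had a sole library in a group, WT1 or KO2, so nothing is read from the split. No member of the family, and so not Nme7, was in the authors' deposited table of 113 genes, whose adjusted p-values were at most 0.05. S100a10 was in it, with a log2 fold change of -1.40, beside a log2 difference of -1.40 in the fit here. So were 2 of the 5 rows with a pattern most like Nme7, which are named below. The large difference of Nme7 thus has no counterpart in the authors' list, and the reason was not tested.

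**Figure D1:**
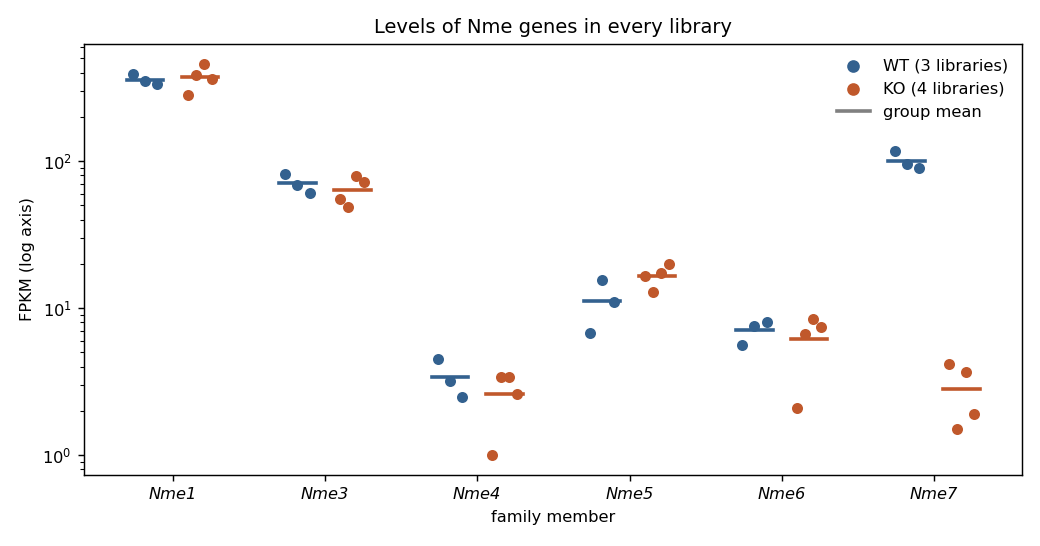
Level of each measured Nme gene in FPKM on a log axis, with a point per library (3 WT, 4 KO) and a bar at each group mean. Nme7 stands at 89.3 to 117.2 FPKM in WT and at 1.5 to 4.2 FPKM in KO, while the points of Nme1, Nme3, Nme4, Nme5 and Nme6 overlap between the groups.

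Nme1 (chromosome 11, 93956979 to 93968521, minus strand), which encodes a cytosolic kinase subunit, was the most abundant member in every library. It read 394.5, 348.4 and 334.4 FPKM across the WT libraries and 282.1, 385.9, 461.3 and 363.5 FPKM across the KO libraries. The KO range enclosed the WT range, with a WT mean of 359 ± 31.4 (SD, n = 3) beside a KO mean of 373 ± 73.7 FPKM (SD, n = 4). The log2 difference was 0.04 (SE 0.19, 95% interval -0.38 to 0.45). Of the 31-base words in Nme1 transcripts, 11.7% also occur in transcripts of other genes on the same strand, nearly all in Gm20390, an annotated gene that spans Nme1 and Nme2, so the split of reads between these genes is uncertain.

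Nme3 (chromosome 17, 24896500 to 24897522, plus strand) followed among the paralogs. It had levels of 81.9, 69.3 and 60.9 FPKM without Cre and 54.9, 48.6, 79.3 and 72.6 FPKM with Cre. The groups overlapped, with means of 70.7 ± 10.6 (SD, n = 3) and 63.9 ± 14.5 FPKM (SD, n = 4) and a log2 difference of -0.16 (SE 0.19, 95% interval -0.58 to 0.25). The value of Nme3 is uncertain because 78.5% of its 31-base words also occur in transcripts of the adjoining gene Mrps34. On the opposite strand, 51.8% of the words also occur in transcripts of Mapk8ip3, and the sources used here do not state whether reads were counted by strand.

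The mitochondrial members Nme4 and Nme6 were low, and each had its lowest value in KO1. Nme4 (chromosome 17, 26091734 to 26095602, minus strand) reached 4.5, 3.2 and 2.5 FPKM in the WT series of libraries, against 1.0, 3.4, 3.4 and 2.6 FPKM in the KO series. Nme6 (chromosome 9, 109832749 to 109843116, plus strand) read 5.6, 7.6 and 8.1 FPKM across the WT libraries and 2.1, 6.7, 8.4 and 7.5 FPKM across the KO libraries. Both genes overlapped between the groups, and outside KO1 their KO values lay within or close to the WT range. The log2 differences were -0.33 (SE 0.29) for Nme4 and -0.28 (SE 0.33) for Nme6. Without KO1 they were -0.07 and 0.08, and the part of the other-cell markers of KO1 in these values was not tested.

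Nme5 (chromosome 18, 34562634 to 34579115, minus strand), a gene of motile cilia, leaned the other way. It had levels of 6.8, 15.6 and 11.0 FPKM without Cre and 16.6, 12.8, 17.3 and 20.0 FPKM with Cre. The lowest KO value lay below the highest WT value, so the groups overlapped. WT averaged 11.1 ± 4.4 (SD, n = 3) against 16.7 ± 2.97 FPKM for KO (SD, n = 4), with a log2 difference of 0.59 (SE 0.24, 95% interval 0.07 to 1.12). Without WT1 the difference was 0.31. Among the libraries with Y-linked RNA, WT1 at 6.8 FPKM lay below KO1, KO3 and KO4. Among those without it, KO2 at 12.8 FPKM lay between WT3 at 11.0 and WT2 at 15.6 FPKM. Each comparison had a sole library in a group, WT1 or KO2, so neither shows whether the higher KO level held.

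Nme5 was measured in libraries with little ependymal RNA, the ciliated lining of the ventricles. The 6 ependymal markers summed to 4.5 to 10.1 FPKM in WT and 2.5 to 3.0 FPKM in KO. Most of this was Rsph1. Foxj1 was listed at no more than 1.0 FPKM in any library, and Ccdc153, Tmem212, Dynlrb2 and Ak7 at no more than 0.8 FPKM each. Nme8 and Nme9, further members of the family in mouse, were listed at 0.0 FPKM in all 7 libraries.

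Counted over the family, 1 of the 6 members, Nme7, passed limma's threshold (adjusted p of at most 0.05 over all rows), and its libraries were the 1 set that did not overlap between the groups. Over all 10089 rows, 1.74% passed in either direction and 0.773% passed with KO lower. The groups did not overlap in 17.4% of rows, and in 8.29% they did not overlap with KO lower. Since this contrast chose the family, nothing is read from the member count. The median log2 difference of the 5 paralogs was -0.16, beside 0.03 over all rows, and it was 0.08 without KO1.

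FPKM are scaled to gene length, so members can be ordered by level. In WT the order was Nme1, Nme7, Nme3, Nme5, Nme6 and Nme4. Only Nme5 and Nme6, at 6.8 to 15.6 and 5.6 to 8.1 FPKM, overlapped as neighbours in that order. In KO the order was Nme1, Nme3, Nme5, Nme6, Nme7 and Nme4. There Nme7 at 1.5 to 4.2 FPKM overlapped both Nme6 at 2.1 to 8.4 and Nme4 at 1.0 to 3.4 FPKM.

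Ratios within a library do not depend on scaling between libraries. They reuse the Nme7 values that chose the family, so they are a description and no further support. Nme7 made up 19.2, 17.8 and 17.6% of the summed FPKM of the 6 members in WT1 to WT3. In KO1 to KO4 it made up 1.16, 0.327, 0.645 and 0.406%. Nme7 was 1.43, 1.39 and 1.47 times the level of Nme3, whose own value is uncertain as given above, in WT1 to WT3. In KO1 to KO4 this ratio was 0.0765, 0.0309, 0.0467 and 0.0262.

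The sum of the other members overlapped between the groups. Without Nme7 the family summed to 451 ± 38.7 FPKM in WT (SD, n = 3) and 462 ± 87 FPKM in KO (SD, n = 4). The WT libraries, at 493.3, 444.1 and 416.9 FPKM, lay inside the KO range of 356.7 to 569.7 FPKM. With Nme7 included the sums were 552 ± 53.2 and 465 ± 86.9 FPKM.

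**Figure D2:**
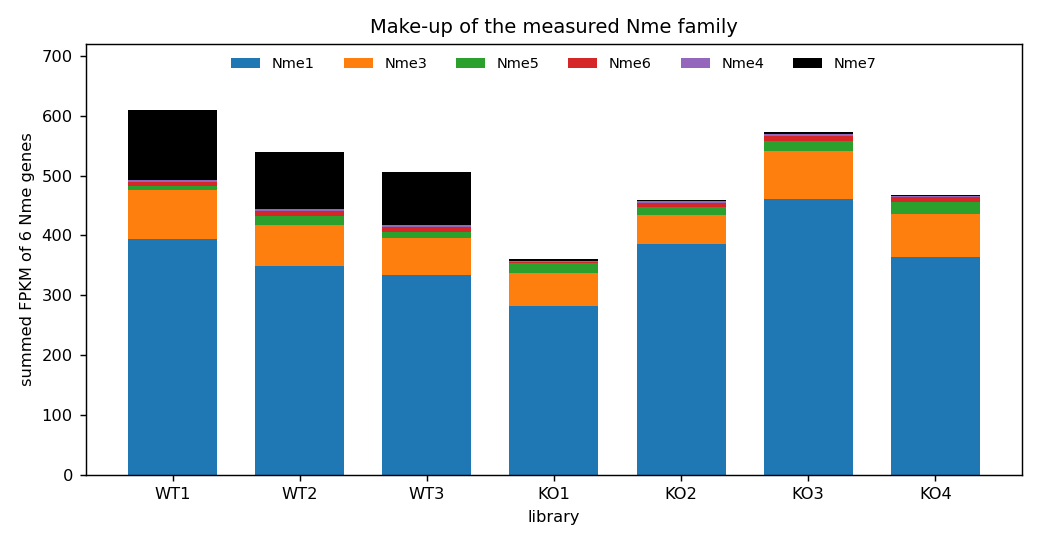
Summed FPKM of the 6 measured Nme genes in each library, stacked by gene from a baseline of 0. The black block of Nme7 is 17.6 to 19.2% of the bar in WT and at most 1.16% in KO, and Nme1 is the largest block in every library.

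Genes around Nme7 on chromosome 1 were examined to see whether its low KO level extended along the chromosome. The 5 nearest rows in the fit on each side spanned gaps of 0 to 900 kb before and 775 to 1326 kb after Nme7. None of the 10 passed limma's threshold over all rows, beside 1.74% of all rows, and 1, or 10%, had an unadjusted limma p under 0.05, beside 18.8% of all rows. All 10 log2 differences were positive, between 0.06 and 0.47, with a median of 0.13 beside 0.03 over all rows.

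Blzf1, which encodes a Golgi protein and overlaps the start of Nme7 on the opposite strand, reached 2.5, 4.3 and 3.7 FPKM in the WT series of libraries, against 4.4, 5.2, 6.5 and 4.7 FPKM in the KO series. Its groups did not overlap, and the log2 difference was 0.47 (limma adjusted p = 0.23). Slc19a2, a thiamine transporter gene 38.7 kb before Nme7, had a log2 difference of 0.11. Kifap3, the accessory subunit of the kinesin-2 motor, had 0.31, and Gorab and Mettl18 had 0.40 and 0.24. After Nme7, Mpzl1 had 0.15, Mpc2, a subunit of the mitochondrial pyruvate carrier, and Dcaf6 each had 0.10, and Tiprl and Creg1 each had 0.06.

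**Figure D3:**
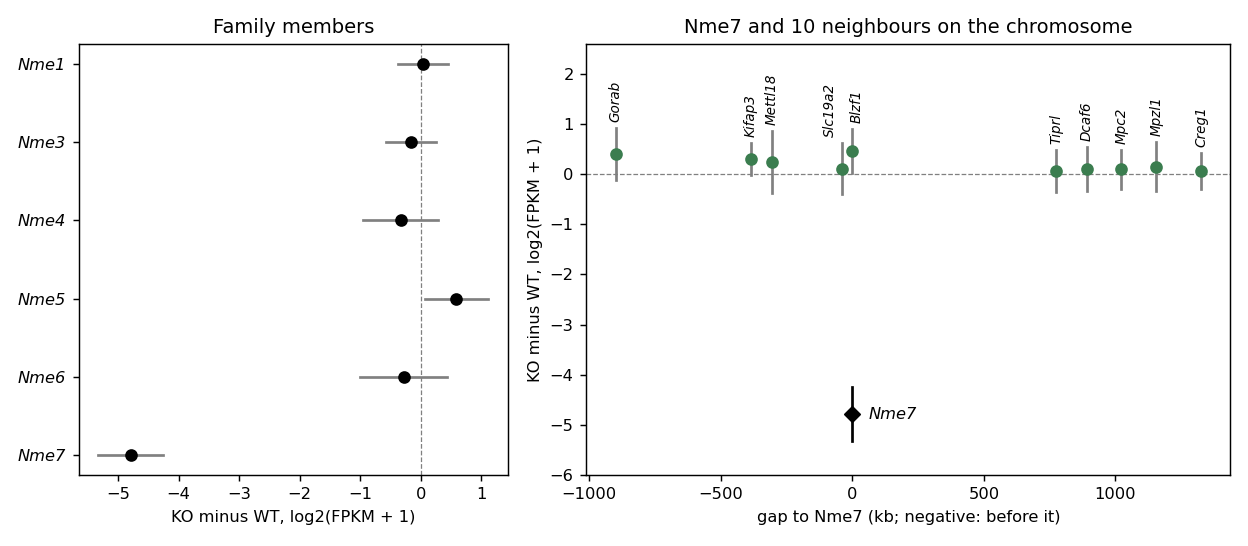
Differences of KO minus WT in log2(FPKM + 1) with 95% intervals, for the 6 family members (left) and for Nme7 with 10 chromosome neighbours by the gap to Nme7 in kb (right). Nme7 lies at -4.79, while the paralogs lie between -0.33 and 0.59 and the neighbours between 0.06 and 0.47.

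The annotation shows where reads at Nme7 could also come from a neighbour. Its 10 annotated transcripts cover 5876 exonic bases, of which 189 overlap exons of Blzf1 and 575 overlap exons of Atp1b1, a sodium pump subunit gene at its far end, both on the opposite strand. Of the 14-exon transcript with the longest coding sequence, 192 of 1740 bases, or 11%, overlap Atp1b1. The handling of strand was not given in the sources used here, so reads of the opposite strand in these stretches cannot be told apart. Atp1b1 was not analysed here, and its part in the Nme7 values was not tested.

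The 5 rows with a pattern most like Nme7 were Srsf4, Zfp352, Rhov, Cers1 and Mt3. Likeness was the root-mean-square difference of mean-centred log2(FPKM + 1) values over the 7 libraries, so it draws on the KO against WT contrast and carries no test. The measure was 0.74 for Srsf4, 1.36 for Zfp352, 1.64 for Rhov, 1.67 for Cers1 and 1.68 for Mt3, beside a median of 2.43 over the other rows in the fit. The paralogs lay between 2.29 for Nme4 and 2.71 for Nme5, near that median.

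Srsf4, a splicing factor gene on chromosome 4, was the closest row. It read 22.0, 22.7 and 15.5 FPKM across the WT libraries and 0.7, 0.8, 0.9 and 0.9 FPKM across the KO libraries. Its KO mean was 4.11% of its WT mean, beside 2.8% for Nme7. Zfp352, a zinc finger gene, stood at 4.9, 6.1 and 1.5 FPKM in WT and was listed at 0.0 in every KO library. Cers1, a ceramide synthase gene, differed from the others in that its groups overlapped, with WT levels of 23.6, 17.2 and 7.7 FPKM and KO levels of 9.3, 1.4, 10.9 and 0.5 FPKM. Rhov and Mt3, the latter a brain metallothionein gene, had KO means of 24.9% and 28.4% of their WT means.

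**Figure D4:**
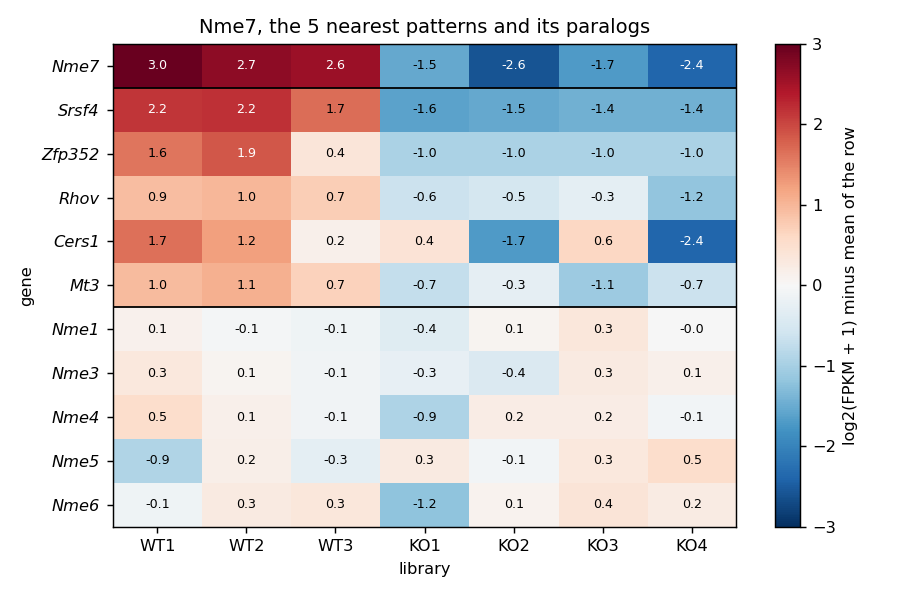
Each cell gives log2(FPKM + 1) minus the mean of its row, for Nme7, the 5 rows most like it and the 5 paralogs in the 7 libraries. Nme7 spans 2.6 to 3.0 across WT and -2.6 to -1.5 across KO, and the paralogs lie between -1.2 and 0.5 with both groups intermixed.

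Genes of nucleotide synthesis, the pathway that supplies the family with substrates, gave no call. Of 45 genes in the list, 42 had a row and 36 were in the fit. None passed limma's threshold over all rows, beside 1.74% of all rows, and 6, or 16.7%, had an unadjusted limma p under 0.05, beside 18.8% of all rows. The median log2 difference was 0.10, with 25 positive and 11 negative. Hprt, the purine salvage enzyme, had the smallest p. It had levels of 214.1, 240.5 and 239.7 FPKM without Cre and 339.5, 379.9, 416.8 and 295.9 FPKM with Cre, with each KO library above each WT library (log2 difference 0.62, limma adjusted p = 0.091). Prps1, which makes the ribose phosphate donor of nucleotides, had 0.49 (adjusted p = 0.18). Dtymk, the thymidylate kinase, which makes a substrate of the Nme enzymes, had 0.37 (adjusted p = 0.22).

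Genes of the gamma-tubulin ring complex and its anchors, among which human NME7 is counted, gave no call either. Of 21 genes, 18 had a row and 15 were in the fit, 8 with a positive and 7 with a negative log2 difference and a median of 0.10. None passed limma's threshold, beside 1.74% of all rows, and none had an unadjusted limma p under 0.05, beside 18.8% of all rows. Tubgcp3, a core subunit, reached 7.3, 6.6 and 5.3 FPKM in the WT series of libraries, against 4.9, 5.2, 4.6 and 3.9 FPKM in the KO series (log2 difference -0.39, limma adjusted p = 0.27). Mzt1, a small subunit of the complex, had 0.30 (adjusted p = 0.29), and Haus7, of the augmin complex, had -0.55 (adjusted p = 0.31).

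The ciliary list, which held transport, BBSome and motile axoneme genes, had 57 genes, of which 50 had a row and 34 were in the fit. None passed limma's threshold over all rows, beside 1.74% of all rows. An unadjusted limma p under 0.05 was found for 5, or 14.7%, beside 18.8% of all rows. Positive and negative log2 differences numbered 17 each, with a median of 0.01. Rsph1, a radial spoke gene, read 9.5, 4.5 and 3.1 FPKM across the WT libraries and 1.6, 2.2, 1.7 and 1.5 FPKM across the KO libraries (log2 difference -1.18, limma adjusted p = 0.059). Its groups did not overlap, and its highest value was in WT1, the library with the lowest Nme5. Rsph4a, another radial spoke gene, had the opposite direction, with 2.7, 2.8 and 2.6 FPKM in WT and 3.9, 5.0, 4.4 and 4.2 FPKM in KO (0.54, adjusted p = 0.13). Bbip1, a BBSome subunit, had 0.54 (adjusted p = 0.11).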

How the data were processed

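The authors deposited FPKM values per library, rounded to 1 decimal, so values under 0.05 are listed as 0.0. They also deposited a table of 113 genes with mean FPKM per group, the ratio (fold) and log2 fold change of KO over WT, a p-value and its adjusted form. Per the submitters' processing notes the tools were DESeq 1.10.1, Cufflinks 2.1.1 and TopHat2 2.0.8, and the build mm10; their roles are not stated. Annotation and the treatment of strand and of multiple matches are not given in the sources used here. FPKM are no counts, so depth is unknown and no counting interval is given. A library summed to between 379417 and 511328 FPKM.

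Groups and replicate numbers came from the sample titles. Library columns were matched through the pairs of numbers and samples in the file header. The comparison used limma 3.58.1 (R 4.3.3, eBayes with trend, two-sided) on log2(FPKM + 1), for rows averaging 1 FPKM or more, with Benjamini-Hochberg adjustment over 10089 rows and a threshold of 0.05. The fit was checked on simulated rows with independent noise and added changes of known size. Effects shared by the rows of a library were not simulated, so the check does not cover them. P-values measure the spread between pools of mice. Positions, transcripts and 31-base words came from GENCODE M21 (GRCm38). Python 3.11.15, pandas 2.3.3, Biopython 1.88 and matplotlib 3.10.9 were used.

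Members, gene lists and tests were chosen with earlier results of these data known. Named genes were S100a10, every Nme row, the 10 chromosome neighbours, list members past the threshold or otherwise the 3 with the smallest p, and the 5 rows most like Nme7. Chat, ependymal and interneuron markers and the genes that overlap members were named besides, to describe the libraries and the annotation. Alternatives were pseudocounts of 0.1 and 5, no filter or an average of 5 FPKM or more, quantile normalization, median centring, limma without trend or with array weights, a replicate block and each library left out. A term for Y-linked RNA was added after seeing the data.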

Additional observations from a re-analysis of the deposited data

Results flagged for a closer look

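Among the 30 named genes searched for a KO library far from the other KO libraries, 2 had such a value, and chance gives about 1 in 20 groups. Dcaf6, a chromosome neighbour of Nme7, stood at 20.7 FPKM in KO1 against 13.0, 12.5 and 13.8 FPKM in the other KO libraries, a gap of 0.84 of the whole KO range. Bbip1, a BBSome subunit gene, stood at 48.5 FPKM in KO4 against 56.7, 57.2 and 55.8 FPKM in KO1 to KO3, also a gap of 0.84 of the range. No Nme member had such a value, although KO1 was the lowest KO library for Nme1, Nme4 and Nme6.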

How the results depend on the processing

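Nme7 stayed negative under every alternative run, at -5.22 with a pseudocount of 0.1, -3.76 with a pseudocount of 5, and -4.96 to -4.61 with a library left out. Its share of the family sum differed by -17.6 percentage points between KO and WT (-17.9 to -17.1 with a library left out). The paralog median of -0.16 turned to 0.08 without KO1 (range with a library left out -0.27 to 0.08). Nme1 turned to -0.01 with quantile normalization and ranged from -0.07 to 0.16 with a library left out. Nme6 ranged from -0.45 to 0.08, and turned without KO1. Nme5 fell to 0.15 with array weights, beside 0.59. The number of rows called, 176, was 39 without a filter, 100 without trend, 1689 with array weights, and 28 to 376 with a library left out (28 without WT2, 376 without KO1). Array weights gave 4 calls among nucleotide genes, 1 among gamma-tubulin genes and 4 among ciliary genes, and leaving out a library gave 0 to 1 among nucleotide (1 without KO1) and ciliary genes (1 without WT3). The chromosome neighbours gave 0 calls under every alternative run. The causes of these shifts were not tested. With the replicate block 18 rows were called and Nme7 stood at -4.68. Same-numbered libraries did not deviate together (r of -0.22, 0.02 and -0.26 across genes). With so few libraries these r cannot exclude a pairing, and the sample titles state none beyond the number. Nme4 had no value under the filter at 5 FPKM. With unknown depth, no detection limit can be set for the KO values of Nme7.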
